A study of Mus musculus with 2 samples.

Results

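Hepatocytes with at least 1 UMI of mVenus, the marker on the NRAS transgene, and a low number of UMIs in all were described here by the amount of Nras message detected in the same cell. The cells were chosen by fixed filters in 1 pooled library of mouse liver cells: at least 500 genes, at least 1000 and fewer than 10000 gene UMIs (unique molecules), mitochondrial UMIs below 20%, at least 1% of UMIs from Alb, Apoa1, Apoa2, Ttr and Fgb, below 0.5% from the MHC class II genes H2-Aa, H2-Ab1, H2-Eb1 and Cd74, at most 1 UMI of the endothelial genes Clec4g, Ptprb and Kdr, and at least 1 mVenus UMI. These filters left 401 cells of the 13151 barcodes. They were selected on Nras counts into 290 cells with at most 1 Nras UMI (low Nras) and 49 cells with at least 5 (high Nras), and the 62 cells in between are given beside them. Nras, mVenus and the filter genes chose the cells, so they were left out of every result.

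The library pooled hepatocytes from 3 young female C57BL/6 mice, taken on day 6 after hydrodynamic tail-vein injection (HDTVi), a rapid high-volume injection that carries plasmid into a subset of hepatocytes. All mice received a transposon with its transposase, from which the CAGGS promoter drove NRAS and mVenus. NRAS was the oncogenic G12V form in 2 mice. In 1 control mouse it was the G12V/D38A form, whose effector loop is also changed and which the paper calls non-oncogenic. Each mouse carried a hashtag, an antibody with a DNA tag, and cells were sorted for mVenus before pooling. The deposited key gives hashtag 1 to the D38A mouse and hashtags 2 and 3 to the G12V mice, whereas the methods give hashtags 1 and 2 to G12V and hashtag 3 to D38A, so mice are named by hashtag alone.

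RAS proteins are small GTPases that pass growth factor signals to the RAF, MEK and ERK kinases. Sustained signalling from a mutant RAS can drive a cell into oncogene-induced senescence, a stable exit from the cell cycle that is held by CDK inhibitors and accompanied by a secretory programme. Hepatocytes are marked by plasma protein secretion, by nitrogen and drug metabolism, and by division of these tasks between periportal and pericentral zones of the lobule.

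The 2 Nras groups differed in depth before any gene was compared. Low Nras cells held a median of 2544.5 UMIs and high Nras cells a median of 4538 UMIs, with 910836 and 253345 UMIs in all. Nearest to the limits, 92 cells had 1 Nras UMI and 41 had 2 UMIs, while 7 cells had 4 and 3 cells had 5. The highest cell had 348, and the median of the high group was 15. The Nras row takes up reads of the mouse gene and, where they align, of the transgene, and these cannot be told apart. A single mVenus UMI was the only one found in 249 of 290 low Nras cells and in 17 of 49 high Nras cells. In this depth window, 6.85% of all 5851 hepatocytes (median 2617 UMIs) held an mVenus UMI, with an exact binomial (Clopper-Pearson) 95% interval of 6.22% to 7.53%. The share was 5.48% (3.91% to 7.45%) in 693 cells with at least 5 endothelial UMIs (median 3489 UMIs), a cell type that should lack the transgene. Taken over all hepatocytes of the window, the presence of an mVenus UMI was thus not above background at this depth. Split by Nras, 290 low Nras hepatocytes held an mVenus UMI and 5157 did not, whereas at high Nras 49 did and 49 did not. The part of free RNA in the mVenus calls was not tested.

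**Figure D1:**
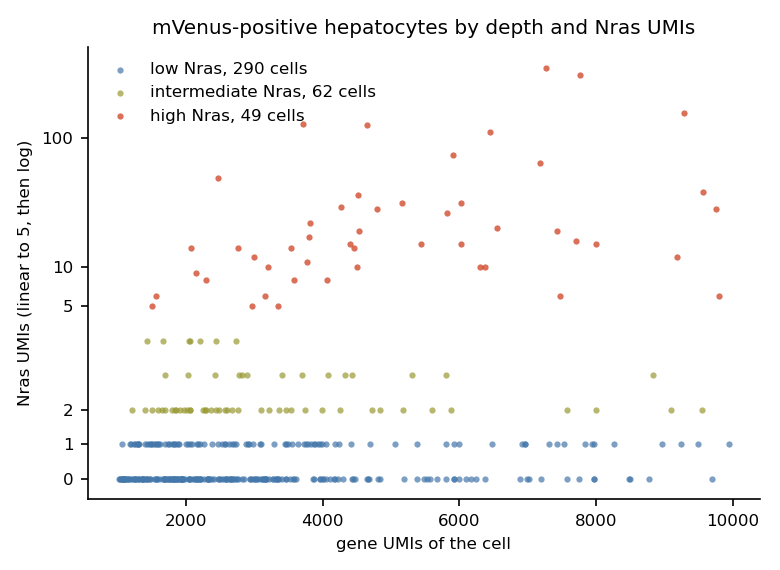
Gene UMIs (horizontal) against Nras UMIs (vertical, linear to 5 and logarithmic above) in each of the 401 cells, coloured by Nras group. The 49 high Nras cells sit between 5 and 348 Nras UMIs with a median of 4538 gene UMIs, and the 290 low Nras cells have a median of 2544.5 and reach up to 9952.

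These barcodes stood apart from the deeper hepatocytes of the library in 2 measures, and whether they are intact cells was not tested. The median mitochondrial share was 0.305% of UMIs in low Nras cells and 0.295% in high Nras cells, against 8.50% in 2154 hepatocytes with at least 10000 UMIs and 4.65% in the endothelial-marker cells. HTODemux gave no hashtag to 88.8% of the 401 cells, against 39.0% of the deep hepatocytes and 4.76% of the endothelial-marker cells. Among low Nras cells, 5, 6 and 14 were called for hashtags 1, 2 and 3, and among high Nras cells 0, 6 and 2. With most cells uncalled and the key in dispute, the form of NRAS and the Nras level cannot be told apart. All 12 hepatocyte markers that the filters did not use had UMIs in both groups, with a summed level of 12728 CPM (UMIs scaled to a common total of counted UMIs) in low and 16293 CPM in high Nras cells. Transferrin (Trf) made up most of the higher sum, and of the 12 genes 6 were 2-fold lower in high Nras cells, 1 was higher and the median log2 ratio was -1.24, against 10.3% and 9.52% of all genes by the limits given next.

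With 1 library and almost no hashtag calls there was no replicated comparison of the Nras groups. Only hashtag 2 had at least 5 cells in both, so UMIs were pooled over the cells of each group and no p-value was computed. A gene was counted as apart at a ratio of at least 2-fold with exact Poisson 95% intervals that did not overlap, among 4379 genes with at least 10 CPM in either group and at least 20 UMIs over both. These intervals, like all others here, hold the error of counting and leave out how cells and mice vary. High Nras cells had 417 genes 2-fold higher (9.52% of the genes compared) and 451 genes 2-fold lower (10.3%), with a median log2 ratio of 0.04 over all of them. Genes of the cytoskeleton, keratins, annexins and CDK inhibitors were among those higher, and genes of the urea cycle, amino acid breakdown and both lobular zones among those lower. When each high Nras cell was set beside the low Nras cell nearest in UMIs (49 against 49, medians 4538 and 4468), 239 genes were higher and 302 lower, of which 220 and 280 were also apart without matching.

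**Figure D2:**
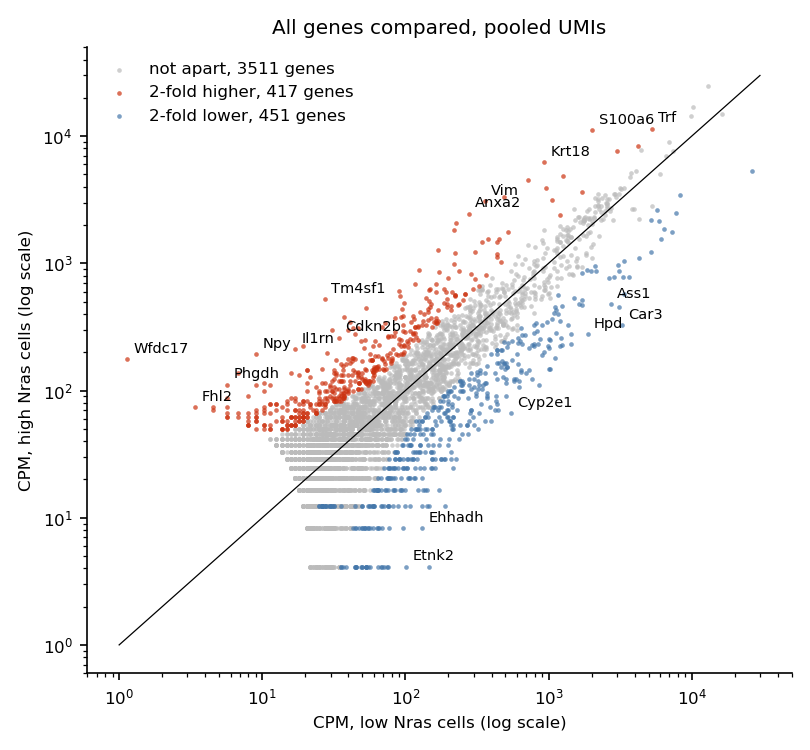
CPM in low Nras cells (horizontal) against high Nras cells (vertical), both on log scales, for the 4379 genes compared, with genes without a UMI drawn at 3 counts and the line of equal level in black. The 417 genes 2-fold higher lie above the line and the 451 genes 2-fold lower lie below it, Krt18, Vim and Anxa2 among the former and Car3, Ass1 and Hpd among the latter.

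The largest ratios in each direction, at most 10, were named among genes with at least 50 CPM in the higher group and the same direction in the 6 against 6 cells of hashtag 2. For several genes that direction rests on 1 or 2 UMIs and carries little weight. In low and high Nras cells of hashtag 2, Il1rn had 0 and 1 UMIs and Car3 had 2 and 0. No p-value was computed for these pooled ratios. Npy, which encodes neuropeptide Y and is not a usual hepatocyte product, had 47 UMIs in 12 of 49 high Nras cells and 8 UMIs in 3 of 290 low Nras cells. Its level was 9.09 CPM in low, 30.1 CPM in intermediate and 194 CPM in high Nras cells, 21.3-fold higher (95% interval 9.99 to 52.3). Il1rn, the interleukin-1 receptor antagonist, was found in 24 of the high and 15 of the low Nras cells, at 211 and 17.0 CPM (12.4-fold, 6.84 to 23.7). Both genes had intermediate levels in the cells with 2 to 4 Nras UMIs, where Il1rn stood at 70.1 CPM.

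The other named genes that were higher differed in how widely they were spread over cells. Capg, an actin-capping protein, had UMIs in 27 of 49 high Nras cells (223 CPM against 19.3 CPM, 11.5-fold, 6.59 to 21.2). The LIM-domain gene Fhl2 was found in 14 high and 3 low Nras cells, with a ratio of 21.8-fold (6.36 to 116), and Phgdh, the first enzyme of serine synthesis, in 13 and 5 cells (19.6-fold, 7.45 to 65.2). Tm4sf1, a tetraspanin-like membrane protein abundant in endothelium, reached 524 CPM against 27.3 CPM, but 1 high Nras cell held 66 of its 127 UMIs, and the endothelial-marker cells stood at 669 CPM. The tubulin Tuba1a, the caveolar gene Cavin3 and the decoy receptor gene Tnfrsf23 were 15.4-, 15.3- and 11.6-fold higher, with UMIs in 12, 13 and 9 high Nras cells. Tuba1a stood at 70.2 CPM in high Nras cells, below the 160 CPM of the endothelial-marker cells and the 176 CPM of cells rich in MHC class II genes.

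Wfdc17 had the largest ratio of all, 156-fold (26.6 to 6312), and rested on 4 cells. Of its 43 UMIs in high Nras cells, 42 lay in the 4 cells that also held macrophage marker UMIs, and 42 lay in cells called for hashtag 2. The cells rich in MHC class II genes stood at 197 CPM. Outside the cells with macrophage UMIs the high group held 1 Wfdc17 UMI, so no ratio is given without them.

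Among the 9 genes described that were lower, Car3 was the most abundant. Car3, a carbonic anhydrase typical of pericentral hepatocytes, had UMIs in 250 of 290 low but only 11 of 49 high Nras cells, with 3254 CPM in low, 3507 CPM in intermediate and 326 CPM in high Nras cells. It was 9.98-fold lower in the last (95% interval 7.98 to 12.6). The remaining 8 were down to 1 or 2 UMIs in the high group, so their ratios are imprecise. Etnk2, an ethanolamine kinase, had 89 UMIs in low and 1 in high Nras cells (24.5-fold lower, 4.29 to 978), and Ehhadh, a peroxisomal enzyme of fatty acid oxidation, 115 and 2 UMIs (15.8-fold, 4.28 to 132). Klf15, a transcription factor of fasting metabolism, had 67 UMIs in low and 1 in high Nras cells. The serine dehydratase gene Sds had 65 and 1 UMIs. Fpgs, Cyp2a12, Tk1 and Sult1b1 were at 1 UMI in the high group, with ratios from 12.9- to 16.5-fold and lower bounds of 2.21 to 2.85. Except for Tk1, in these 9 genes the intermediate cells lay closer to the low than to the high group on the CPM scale.

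**Figure D3:**
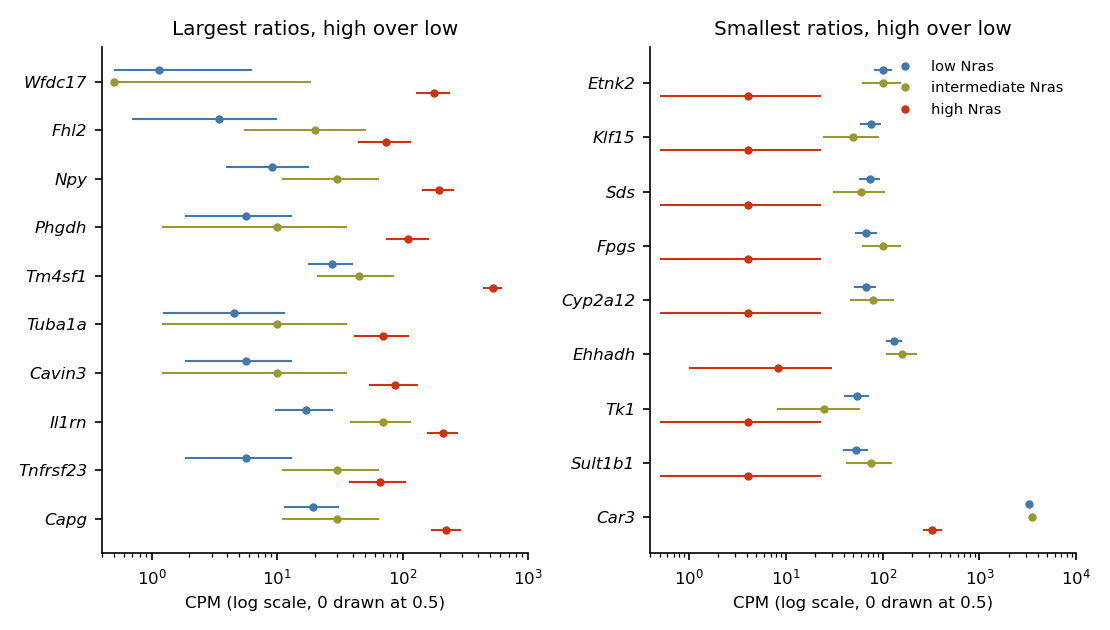
CPM (log scale) with exact Poisson 95% intervals of the 10 genes with the largest and 9 with the smallest ratio of pooled CPM, in low, intermediate and high Nras cells, with 0 drawn at 0.5. Intervals of the low and high groups do not overlap, and in the right panel 8 of 9 genes have 1 or 2 UMIs in high Nras cells.

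ERK targets and feedback regulators were the first group read, since they lie directly below RAS. Of 27 listed genes 8 had enough counts, and 6 of them were higher, 0 lower and 2 not apart (9.52% and 10.3% of all genes were higher and lower), with a median log2 ratio of 1.88. Emp1, an epithelial membrane protein, was 7.79-fold higher (2.99 to 22.6) with its 15 UMIs in 4 cells, 9 of them in 1 cell. Ier3, an immediate early survival gene, was 6.81-fold higher (2.71 to 18.6). Dusp6, the phosphatase that dampens ERK, was at 22.7, 35.1 and 70.2 CPM in low, intermediate and high Nras cells (3.09-fold, 1.52 to 6.21). Cyclin D1 (Ccnd1) was at 144 and 285 CPM and missed the 2-fold limit, and Egr1, an immediate early factor, had 44 and 12 UMIs, a ratio of 0.991 (0.476 to 1.91). The EGF receptor ligands Hbegf and Tgfa were 5.45- and 4.36-fold higher. Summed over the 27 genes, the level was 399 CPM in low, 561 CPM in intermediate and 1144 CPM in high Nras cells.

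CDK inhibitors and other senescence genes were also higher. Of 13 listed genes 7 had enough counts, 4 were higher and 0 lower, beside 9.52% and 10.3% of all genes. The median log2 ratio was 2.57. Cdkn2b, which encodes the CDK4 and CDK6 inhibitor p15, had UMIs in 30 of 49 high against 16 of 290 low Nras cells, at 34.1, 75.1 and 260.1 CPM in low, intermediate and high Nras cells (7.63-fold, 4.87 to 12.2). Cdkn1a, which encodes the inhibitor p21, stood at 28.4, 90.2 and 198 CPM (6.98-fold, 4.22 to 11.8). The chromatin protein gene Hmga2 and the growth factor binding protein gene Igfbp3 were 5.93- and 6.81-fold higher. Gdf15 was 1.54-fold higher without being apart, and Igfbp7 and Cdkn2c had 3 and 5 UMIs in the high group, with ratios of 0.363 (0.0709 to 1.17) and 0.699 (0.210 to 1.85). Cdkn2a, which encodes p16 and p19ARF, had 1 UMI in low and 0 in high Nras cells, so no difference could be seen at this depth. Of the 20 secretory genes only Ccl2, a monocyte attractant, was apart (10.2 and 99.1 CPM, 9.69-fold, 4.35 to 23.7), with 14 of its 24 UMIs in 1 of 8 high Nras cells. The placental growth factor gene Pgf had 15 UMIs in 4 high and 0 in low Nras cells, too few to be compared. Cxcl1 was at 21.6 and 37.2 CPM, and the other 18 had too few counts. Il6 and Mmp3 had no UMI in either group.

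The largest group of higher genes by number was that of the cytoskeleton, annexins and S100 proteins. Of 25 genes with enough counts 19 were higher and 0 lower, beside 9.52% and 10.3% of all genes. The median log2 ratio was 1.87, and the summed level went from 8839.7 CPM in low to 36797 CPM in high Nras cells. The same list stood at 16682 CPM in the endothelial-marker cells and at 92515 CPM in cells rich in MHC class II genes. Any part carried over from other cells was not tested. Vim, which encodes the mesenchymal intermediate filament vimentin, had UMIs in 37 of 49 high and 54 of 290 low Nras cells (3080.2 against 359 CPM, 8.58-fold, 7.51 to 9.81). Anxa2, a calcium-dependent membrane-binding protein, was found in 43 and 68 cells (8.84-fold, 7.60 to 10.3). S100a6 and S100a11, small calcium-binding proteins, reached 11202 and 3311 CPM against 2028 and 488 CPM. The tubulins were split: Tuba1a and Tubb6 had the highest ratios of the list (15.4- and 9.69-fold), whereas Tubb2a and Tuba1c were at ratios of 0.783 and 0.790 and were not apart. Reads shared between tubulin copies were not resolved here.

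Anxa2, S100a11, Il1rn and Hpd are shown with their RefSeq promoters, 250 bases before to 50 after the start on the gene's own strand in GRCm38. The first 3 were higher and Hpd was lower, and all hold the AP-1 site TGANTCA, the motif of the FOS and JUN factors below ERK. This motif reads the same on both strands, and its matches are in capitals.
Anxa2 (chr9:69453433-69453732, plus strand): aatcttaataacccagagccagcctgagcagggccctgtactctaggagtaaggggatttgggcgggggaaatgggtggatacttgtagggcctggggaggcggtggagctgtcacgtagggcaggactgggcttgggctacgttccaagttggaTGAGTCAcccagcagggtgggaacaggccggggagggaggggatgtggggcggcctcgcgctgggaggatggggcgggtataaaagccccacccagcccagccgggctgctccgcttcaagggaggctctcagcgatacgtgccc
S100a11 (chr3:93520246-93520545, plus strand): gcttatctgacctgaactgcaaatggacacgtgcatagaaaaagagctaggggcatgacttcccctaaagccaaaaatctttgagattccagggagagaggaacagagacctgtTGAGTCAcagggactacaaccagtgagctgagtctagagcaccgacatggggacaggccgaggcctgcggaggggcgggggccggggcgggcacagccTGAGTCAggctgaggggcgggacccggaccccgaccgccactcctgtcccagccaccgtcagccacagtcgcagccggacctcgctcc
Il1rn (chr2:24336610-24336909, plus strand): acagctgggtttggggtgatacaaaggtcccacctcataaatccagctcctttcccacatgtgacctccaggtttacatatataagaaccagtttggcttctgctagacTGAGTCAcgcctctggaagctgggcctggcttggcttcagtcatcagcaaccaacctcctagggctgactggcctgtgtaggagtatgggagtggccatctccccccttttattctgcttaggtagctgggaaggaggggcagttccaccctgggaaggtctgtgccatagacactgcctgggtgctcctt
Hpd (chr5:123182674-123182973, minus strand): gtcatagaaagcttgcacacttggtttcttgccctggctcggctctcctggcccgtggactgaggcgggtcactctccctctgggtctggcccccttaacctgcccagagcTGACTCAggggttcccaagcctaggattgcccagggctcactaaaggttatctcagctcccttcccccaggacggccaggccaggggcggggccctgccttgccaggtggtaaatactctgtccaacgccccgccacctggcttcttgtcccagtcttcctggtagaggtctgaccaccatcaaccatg
The match lay 95 bases before the start of Anxa2 and 141 before that of Il1rn, S100a11 held 2 matches, and that of Hpd lay 139 bases before its start. Among other genes described here, the promoters of Emp1, Cxcl10, Mt2 and Ecm1, which were higher, and of Nr1i3, Serpina1c and Hamp, which were lower, held the motif too. TGANTCA was found in 28 of 319 promoters of genes 2-fold higher (8.78%), in 26 of 360 of genes 2-fold lower (7.22%) and in 183 of 3495 of all genes compared (5.24%). Over all 27025 promoters the share was 7.93%, and these matches describe letters in the window only.

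Keratins of simple epithelium led the biliary and progenitor list. Krt18 stood at 936, 1328 and 6251 CPM in low, intermediate and high Nras cells (6.68-fold, 6.13 to 7.28), and its partner Krt8 at 724, 932 and 4542 CPM. Of 9 genes with enough counts 6 were higher and 1 lower, beside 9.52% and 10.3% of all genes. The median log2 ratio was 1.53. Spp1, the secreted phosphoprotein osteopontin, was 2.54-fold higher, the membrane protein gene Tm4sf4 4.32-fold, and the fetal albumin-like gene Afp 2.88-fold (2.20 to 3.78). The factor gene Sox4 had 14 UMIs in 6 high Nras cells (6.36-fold, 2.49 to 17.5) and Sox9, the biliary factor, 7 UMIs (1.59-fold, 0.553 to 4.08, not apart). The imprinted fetal RNA H19 went the other way, with 48 UMIs in 11 low Nras cells and 0 in high Nras cells, at least 4.40-fold lower when the high group is set at 3 counts. Of the duct markers themselves, Krt7 and Epcam had no UMI in either group and Krt19 had 0 and 2.

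Nitrogen metabolism was the group most often lower. All 18 genes of the urea cycle and amino acid breakdown had enough counts. Of these 14 were lower, 0 higher and 4 not apart, beside 10.3% lower and 9.52% higher of all genes. The median log2 ratio was -2.20. Ass1, argininosuccinate synthase, stood at 2715, 2369.6 and 475 CPM in low, intermediate and high Nras cells (5.72-fold lower, 4.74 to 6.96). Hpd, which breaks down tyrosine, had UMIs in 247 of 290 low and 16 of 49 high Nras cells (6.77-fold lower, 5.30 to 8.77), and Otc, ornithine transcarbamylase, in 240 and 14 (6.93-fold, 4.97 to 9.95). Cps1, the entry enzyme of the urea cycle, had 115 and 3 UMIs (10.6-fold lower, 3.52 to 51.9). Glutamate dehydrogenase (Glud1) stood out within the list at 1376 and 1659.8 CPM, a ratio of 1.21 (1.07 to 1.35), and the ornithine carrier gene Slc25a15 was not apart (0.613, 0.321 to 1.09).

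Genes of both lobular zones were lower. These lists share genes with others here, so their counts are not independent results: Cps1 is also in the urea list, and Cps1 and Cyp2e1 are among the hepatocyte markers. Among periportal genes 10 of 13 were lower and 1 higher (median log2 ratio -2.63), with Sds and Cps1 at the lowest ratios and the protease gene Ctsc as the higher one (14.8 and 53.7 CPM). Among pericentral genes 4 of 8 were lower and 0 higher (median -1.62). Of all genes compared, 10.3% were lower and 9.52% higher. Cyp2e1, which oxidises ethanol, was at 546, 606 and 66.1 CPM (8.26-fold lower, 5.03 to 14.6) and Rgn, regucalcin, at 3364, 3316 and 578 CPM. Glul, glutamine synthetase of the innermost pericentral layer, had UMIs in 58 of 290 low and 7 of 49 high Nras cells (3.54-fold lower, 2.44 to 5.32). Cyp1a2, another pericentral P450, was at a ratio of 1.56 (0.790 to 2.93) and was not apart. Of 18 cytochrome P450 genes 8 were lower, led by Cyp2c50 (129 and 1 UMIs, 35.5-fold, 6.26 to 1413) and Cyp2c37 (50 and 1 UMIs), while Cyp2c68 and Cyp2a5 were 2.96- and 2.54-fold higher. Counts of close Cyp2c copies are uncertain, since reads that fit several copies may be dropped or split.

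Secreted plasma proteins did not move as 1 group. Of 21 genes 6 were lower, 1 was higher and 14 were not apart, with a median log2 ratio of -0.02. Serpina1c, an antitrypsin copy, was at 6371 and 1866 CPM (3.41-fold lower) and the fibrinogen chain gene Fgg at 602 and 194 CPM (3.10-fold lower). Transferrin (Trf) was at 5285 and 11466 CPM (2.17-fold higher, 2.07 to 2.27), with UMIs in all 49 high Nras cells, and the retinol carrier gene Rbp4 was 1.75-fold higher without reaching the limit. Among hepatocyte transcription factors 3 of 14 were lower and 0 higher (median -0.55), beside 10.3% and 9.52% of all genes. Ppara, the fatty acid sensor, had 39 and 1 UMIs (10.7-fold lower, 1.82 to 435) and Nr1i3, the xenobiotic receptor CAR, 88 and 3 (8.07-fold, 2.67 to 39.9). Hnf4a, the central hepatocyte factor, was at 107 and 145 CPM (ratio 1.35, 0.890 to 2.01), and Xbp1 and Foxa2 were at ratios of 1.67 and 1.48. Of 5 transporter genes with enough counts only Slco1b2, an organic anion carrier, was apart (67 and 3 UMIs, 6.15-fold lower, 2.02 to 30.6).

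Cholesterol synthesis was higher in part, with 7 of 15 genes higher and 0 lower (median log2 ratio 1.03). For this and the next lists, 9.52% of all genes were higher and 10.3% lower. Mvd and Cyp51, enzymes of the mevalonate and lanosterol steps, were 5.59- and 4.98-fold higher, and Pmvk and Insig1 were at ratios of 1.13 and 1.33. Acute phase genes were split, with 4 of 13 higher and 2 lower (median 0.38). The metallothioneins Mt1 and Mt2 were 3.83- and 4.53-fold higher, and Hamp, the iron hormone hepcidin, and the orosomucoid gene Orm1 were 2.45- and 3.76-fold lower. In the glycolysis list 2 of 15 genes were higher and 4 lower (median -0.22). Pkm, the pyruvate kinase form of most non-hepatic cells, was at 40.9 and 343 CPM (8.38-fold, 5.60 to 12.8). By contrast Pck1 and Fbp1, enzymes of gluconeogenesis, were 6.17- and 4.62-fold lower. The glutathione transferase gene Gsta1 was 9.19-fold higher and Gstm3 6.13-fold lower, in an NRF2 and glutathione list with 4 of 15 higher and 4 lower.

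Interferon genes were 3 higher and 1 lower of 12, beside 9.52% and 10.3% of all genes, and the chemokine gene Cxcl10 had 6 UMIs in low and 33 in high Nras cells, the latter in 6 cells with up to 15 in 1 of them. For MHC class I the counts were 2 higher and 1 lower of 10, and for immediate early genes, which respond to tissue dissociation, 2 higher of 14, Hspb1 and Hspa1b. Fos and Jun themselves were at ratios of 0.771 and 0.745. The integrated stress list had 1 lower of 10, the transcription factor gene Atf5 (424 and 70.2 CPM, 6.04-fold lower, 3.72 to 10.5). Complement and coagulation genes were 1 higher and 3 lower of 19. Only 3 of 20 cell cycle genes had enough counts, with Hmgb2 lower (31 and 1 UMIs, 8.53-fold, 1.42 to 348). Of 76 ribosomal protein genes and 12 mitochondrial transcripts 0 were apart.

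**Figure D4:**
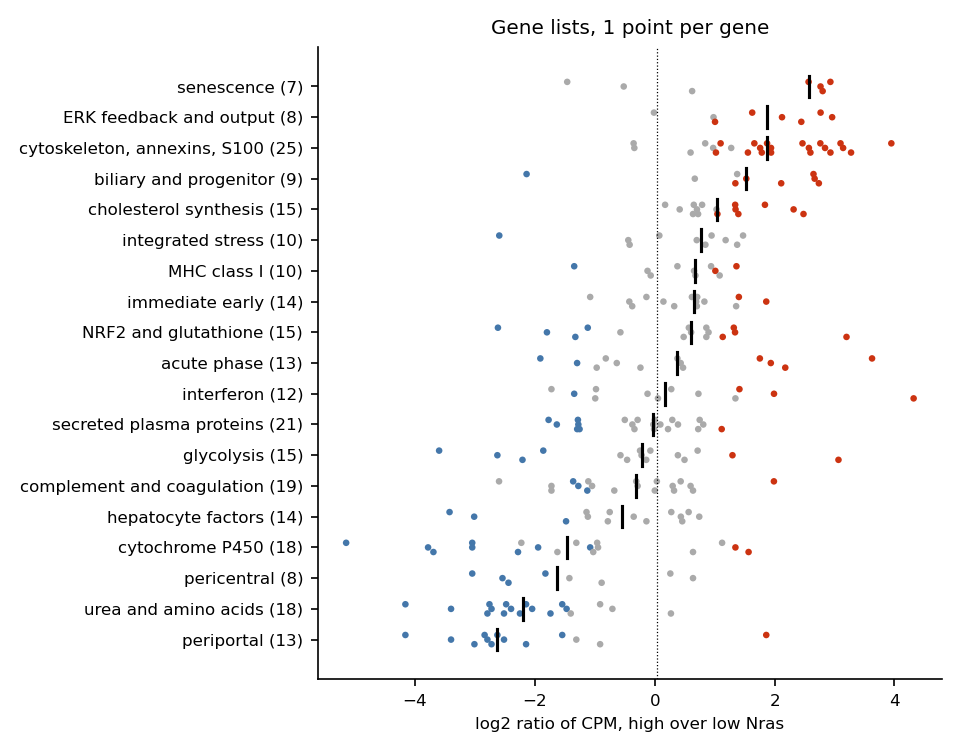
Log2 ratio of CPM in high over low Nras cells for each gene with enough counts, by list, with genes 2-fold higher in red, 2-fold lower in blue, the rest in grey, the list median as a black bar and the median of all 4379 genes as a dotted line. Medians run from 2.57 for the 7 senescence genes to -2.63 for the 13 periportal genes.

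The shares of the cytoskeletal and urea lists in each cell show how the pooled differences were spread over cells. Both lists were picked because they differed in the pooled counts of these same cells. Their shares thus describe the cells and add no support for the difference. The cytoskeletal, annexin and S100 genes took a median of 0.490% of UMIs in low Nras cells (lowest 0.0728%, highest 13.2%), 0.529% in intermediate cells and 3.54% in high Nras cells (0.128% to 6.74%). The urea and amino acid genes took medians of 1.23%, 1.25% and 0.250%. Thus 44 of 49 high Nras cells (89.8%, 95% interval 77.8% to 96.6%) lay above the low Nras median of the first list and below that of the second, as did 86 of 290 low Nras cells (29.7%) and 23 of 62 intermediate cells (37.1%). The groups overlapped: 8 low Nras and 5 intermediate cells reached the high Nras median of the cytoskeletal share, and 5 high Nras cells lay at or below the low Nras median. Shares per cell become coarser as cells become shallower, and the 2 groups differed in depth.

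**Figure D5:**
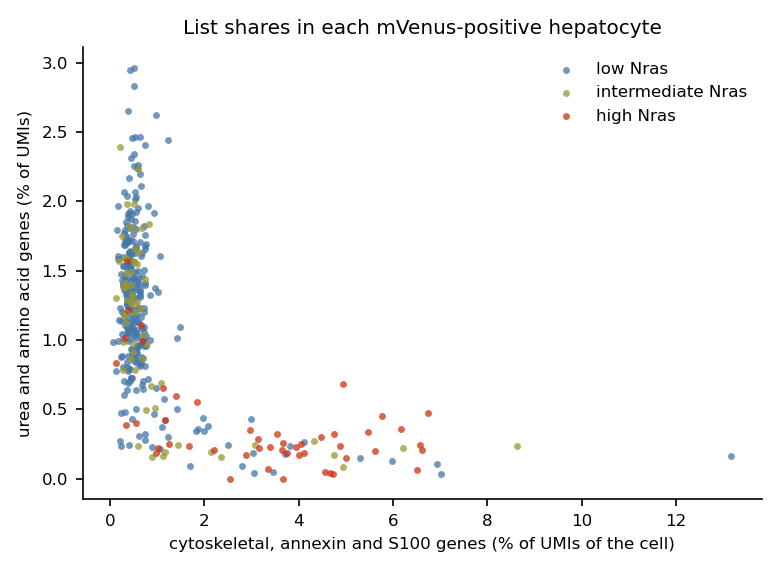
Share of UMIs from the 29 cytoskeletal, annexin and S100 genes (horizontal) against that from the 18 urea and amino acid genes (vertical) in each of the 401 cells, coloured by Nras group. Most of the 49 high Nras cells lie low and to the right, most of the 290 low Nras cells lie at the left, and 8 low Nras cells reach the high Nras median of 3.54%.

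Markers of other liver cells differed in level from list to list. Cholangiocyte markers were the most abundant at 3271 and 8435 CPM in low and high Nras cells (2.58-fold, 2.44 to 2.73), most of it Spp1. Of the 4 cholangiocyte markers with enough counts 2 were higher, beside 9.52% of all genes. Their part in the biliary and progenitor list, which shares Spp1, Sox9, Krt7, Krt19 and Epcam, was not tested. The 12 macrophage genes summed to 31 UMIs in 23 of 290 low Nras cells and to 42 UMIs in 4 of 49 high Nras cells (35.2 and 173 CPM, 4.92-fold, 3.02 to 8.10). Marco had no UMI in either group, and the C1qa, Adgre1, Timd4 and Csf1r UMIs of the high group came from 1 cell each. In the 552 cells rich in MHC class II genes the same list stood at 1124 CPM. Endothelial markers were at 48.9 and 45.4 CPM, against 16266 CPM in the endothelial-marker cells, T and NK cell markers at 10.2 and 0 CPM, B cell markers at 3.41 and 4.13 CPM, and neutrophil and monocyte markers at 26.1 and 20.6 CPM. Erythroid markers had 25 and 1 UMIs, and dendritic cell markers, mostly Cst3 and Bst2, were at 534 and 809 CPM. The 11 stellate markers summed to 141 and 363 CPM (2.58-fold), of which only Ecm1 was apart (132 and 355 CPM), and 7 and 9 of them had no UMI in low and high Nras cells. Cells holding a macrophage, T, NK, B, neutrophil or monocyte marker UMI were then left out. The remaining 240 low and 40 high Nras cells gave 341 genes higher and 416 lower, so the counts were of like size without them. Dendritic cell markers, found in 191 low and 48 high Nras cells, were not used to leave cells out.

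The same contrast was then measured in cells outside the selection. Among hepatocytes of the same filters without an mVenus UMI, 49 had at least 5 Nras UMIs (median 4700 UMIs) and 5157 at most 1 (median 2558 UMIs). In these cells 8.96% of 6281 genes were 2-fold higher and 7.75% were 2-fold lower. Of the 868 genes apart in mVenus-positive cells, 843 (97.1%) had the same direction and 543 (62.6%) were also apart, namely 242 of the 417 higher and 301 of the 451 lower. Krt18 was at 727 and 3928 CPM in these cells, Vim at 128 and 1141 CPM, Cdkn2b at 21.4 and 295 CPM, Ass1 at 2178 and 483 CPM and Car3 at 1648 and 346 CPM. Exceptions included Cyp2c68, at 180.3 and 85.5 CPM, and Mvd, at 38.8 and 17.1 CPM, which were both lower in the high group here. These cells come from the same mice and library and were split by the same Nras limits, so they repeat the measure without being a second experiment. The share of all genes compared that had the same direction was not computed, here or for the deep cells below.

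Deep hepatocytes gave the second set. Hepatocytes with at least 10000 UMIs were thinned once to 5000 UMIs each, after which 183 had at least 5 and 55 had at most 1 Nras UMI beside an mVenus UMI. In them 2.57% of 4949 genes were 2-fold higher and 4.16% were 2-fold lower, and 740 of the 868 genes (85.3%) kept their direction, 340 of the 417 higher and 400 of the 451 lower. Fewer were also apart there, 179 of the 868 (20.6%), with 54 of the 417 higher (12.9%) and 125 of the 451 lower (27.7%). The median log2 ratio of the genes that were higher was 0.43 there. Krt18 was at 2329.7 and 3919 CPM, Vim at 832 and 1795 CPM, and Cdkn2b at 169.5 and 380.2 CPM, so the low Nras deep cells already stood above the low Nras shallow cells for all 3. Ass1 (390.3 and 110.3 CPM), Hpd (146 and 12.6 CPM) and Car3 (299.6 and 13.8 CPM) were low in both. Secreted plasma proteins were lower as a list in deep cells, with a median log2 ratio of -1.37, against -0.02 in the shallow cells, and Trf was at 15173 and 11948 CPM and Afp at 485 and 186 CPM. Neither difference between depths was tested.

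Few genes were apart by mVenus alone. At low Nras, mVenus-positive over mVenus-negative hepatocytes had 62 genes higher (1.03% of 6003) and 74 lower (1.23%) by the same limits on pooled counts. At high Nras the pooled counts were 34 higher (1.27% of 2670) and 34 lower (1.27%). For the low Nras cells the 3 hashtags allowed a test, with sums of 5, 6 and 14 mVenus-positive against 166, 189 and 179 mVenus-negative cells. edgeR's quasi-likelihood test with the hashtag as a block called 0 genes higher and 4 lower (0.139% of 2887) at a Benjamini-Hochberg adjusted p below 0.05, with 27 and 62 genes at an unadjusted p below 0.05. By edgeR's adjusted p the genes were the neutrophil genes S100a9 (0 and 442 CPM, adjusted p = 0.00234) and S100a8 (0 and 213 CPM, adjusted p = 0.0421), the thymosin gene Tmsb4x (330.2 and 1423 CPM, adjusted p = 0.00783) and the sulfotransferase gene Sult2a2 (74.3 and 575 CPM, adjusted p = 0.0421). DESeq2 called 1, and without the block 0 were called. At high Nras no hashtag had 5 cells of both kinds, so no test was run.

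A fit that pooled the spread over all 7 hashtag sums of at least 5 cells also compared the Nras groups, with a spread that was not measured in the high group. It set the single high Nras sum of hashtag 2, made of 6 cells and assumed to vary like the other sums, against the 3 mVenus-positive low Nras sums with the hashtag as a block. Of 1711 genes, 3 were higher (0.175%) and 0 lower by edgeR's adjusted p, with 47 and 112 at an unadjusted p below 0.05. By edgeR they were Wfdc17 (42 UMIs against 0 in the 3 low sums, adjusted p = 0.00294), Tmsb4x (55 against 40 UMIs, adjusted p = 0.00699) and Anxa2 (40 against 18 UMIs, adjusted p = 0.0377). In the same edgeR fit Krt8 had an adjusted p of 0.0610 and Lyz2, a macrophage marker, of 0.0909. The 4 high Nras cells with macrophage UMIs held 42 of the 43 Wfdc17, 50 of the 356 Tmsb4x and 27 of the 596 Anxa2 UMIs of all 49. The hashtag 2 sum that entered the fit held 42 Wfdc17, 55 Tmsb4x and 40 Anxa2 UMIs. How many of those came from the cells with macrophage UMIs is not given, and the part of these cells in the fit was not tested.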

How the data were processed

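Libraries were made with the 10x 3' chemistry and aligned to mm10. The authors deposited raw UMI counts per gene and barcode, as filtered by Cell Ranger (version 2.1.1 per the submitters' processing notes, 3.0.2 per the file header), and hashtag counts made with CITE-seq-Count. Gene counts were used as deposited. How the mVenus and Nras reads were aligned beyond this is not given in the sources used here.

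Hashtags were called with HTODemux of Seurat 5.3.0 (positive quantile 0.99), which gave 5482 single, 271 doublet and 7386 negative calls among 13141 barcodes in both libraries. No other doublet caller was run, and cells called as hashtag doublets were kept. UMIs were summed over the cells of a group and divided by the group's counted UMIs, leaving out Nras, mVenus and the filter genes (879898 in low, 199615 in intermediate and 242196 in high Nras cells), so that 3 counts were worth 3.41 and 12.4 CPM in low and high Nras cells. Ratios carry exact conditional 95% intervals, levels exact Poisson intervals and shares Clopper-Pearson intervals (SciPy 1.17.1). Repeated molecules are collapsed by UMI, and intervals hold counting error alone. Sums of at least 5 cells per hashtag were tested with edgeR 4.0.16 (quasi-likelihood, TMM, hashtag as a block) and DESeq2 1.42.0 under R 4.3.3, with Benjamini-Hochberg adjustment. The deep cells were thinned once with a fixed seed. The steps were tested on simulated data. The planned edgeR comparison of the Nras groups across hashtags could not be fitted, since only 1 hashtag had 5 cells in both.

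Named genes were the 10 with the largest ratio in each direction among genes apart, with at least 50 CPM in the higher group and the same direction in hashtag 2, of which 1 is not reported here. Within lists, genes are named as examples, and those not apart were chosen after their values were seen. The cells, lists and rules were chosen with earlier results of these data known. Gene positions follow GENCODE on GRCm38 and promoters follow RefSeq on GRCm38, which held a promoter for 3495 of the 4379 genes compared.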

Additional observations from a re-analysis of the deposited data

How the results depend on the processing

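Against 417 genes higher and 451 lower between the pooled Nras groups, the 25 low and 8 high Nras cells called for 1 hashtag gave 58 and 63 genes, and cells with at least 2 mVenus UMIs (41 and 32) gave 189 and 216. Matching low Nras cells in UMIs gave 239 higher. These alternatives hold fewer cells and genes. The remaining alternatives gave 333 to 563 higher and 416 to 568 lower. Several were chosen after seeing the data: mitochondrial limits, at least 2000 UMIs and no immune marker UMIs (dendritic cell markers not counted). The others chosen so were mVenus-negative cells, another scaling, equal weight per cell and no top cell per gene. Over 20 named genes, 256 of 287 alternative ratios stayed within the counting interval, and over 25 lists 323 of 373 alternative medians moved by less than 0.5 on the log2 scale. No named gene changed sign. Of the list medians 20 of 373 did, in 8 lists that all had medians of at most 0.773 in size: secreted proteins, transporters, acute phase, interferon, integrated stress, immediate early, complement and mitochondrial transcripts. The last went from -0.54 to between 0.13 and 0.39 under 4 alternatives, and interferon from 0.17 to -0.76 in mVenus-negative cells. Thinning to 2000 UMIs left 612 of 833 genes in the same direction in deep cells, and mVenus called before thinning 783 of 868.

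For mVenus at low Nras (4 genes), the fit with no replicate block called 0, DESeq2 1 and no filter on low counts 11, and leaving out 1 hashtag gave 0 to 49 genes, 0 without hashtag 1 and 49 without hashtag 3. The cause was not tested. The hashtag is the mouse, so the block pairs sums of the same animal. Each sum holds few cells, and Wfdc17, Tm4sf1 and Ccl2 rest on few cells.

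For Nras itself no paired analysis was possible because only hashtag 2 had 5 cells in both groups. Other normalisations, tools, filters and left-out hashtags were therefore not run for that test, except the fit that adds the mVenus-negative sums, which called 3 genes. At high Nras none of the alternatives for mVenus was run.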
